A study of Mus musculus with 7 samples.

Results

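The imprinted growth genes described here are H19, Igf2, Igf2r, Peg3, Plagl1, Cdkn1c, Grb10, Mest, Ndn and Meg3, chosen by symbol as 10 of the 23996 genes in the tables. They were followed through 7 RNA-seq libraries of 3T3-L1, a mouse fibroblast line of embryonic origin that can be turned into fat cells. All 7 libraries are of this line, with no genotype or transgene named, and each condition has 1 library. Pro-CM and Pro-MDI are preconfluent cells, with no time given, treated with conditioned medium (CM) or with MDI, a differentiation medium of IBMX, dexamethasone and insulin. The 4h CM, 4h MDI, 24h CM and 24h MDI libraries were taken 4 h or 24 h after the same treatments, and the 0h Control library is of confluent cells before differentiation. CM was itself MDI medium, collected from 3T3-L1 cultures that had been differentiating for 48 h. The stated aim of the study was to find a factor that matters for the differentiation of these cells. No untreated library was taken at 4 h or 24 h, so inducers, new medium and elapsed time cannot be told apart, and the preconfluent libraries differ from the 0h control in density, treatment and an unknown time together.

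An imprinted gene is expressed mainly from the copy inherited from one parent, because the copies carry different DNA methylation at control regions set in the germ line. Many imprinted genes act on growth in opposite directions. Igf2 encodes a growth factor of the embryo, and Igf2r encodes the receptor that binds it and carries it to the lysosome for breakdown. H19 is a noncoding RNA that shares a control region with Igf2, and Plagl1 encodes a zinc finger transcription factor that restrains division and is placed at the centre of the network in mouse. Grb10 and Cdkn1c are growth inhibitors, Mest rises in expanding mouse fat tissue, and Ndn (necdin) holds back differentiation of preadipocytes. The tables hold 1 value per gene and library, so no parental copy was measured.

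Levels are given as FPKM, the fragments of a gene per kilobase of its transcript, relative to all fragments mapped. Differences were taken between values of log2(FPKM + 1), so those of genes near an FPKM of 1 or lower come out too small, and a 2-fold difference means at least 1 on that scale for a gene with an FPKM of at least 1 in either library. Read totals cannot be had from FPKM, so depth is unknown; FPKM summed to between 558532 and 714427 per library. The labels call the cells adipocytes, but fibroblast markers led: all 10 preadipocyte and fibroblast markers reached an FPKM of 1 and their sum ran from 3713 in 24h CM to 10264 in the 0h control. Of 10 adipocyte markers 8 reached an FPKM of 1 in some library, Lep was listed at 0 in all, Adipoq stayed at or under 0.930, and the highest sum was 623 in 24h CM. Endothelial and epithelial markers were under an FPKM of 1 in every library, while 2 of 6 muscle markers and 1 of 5 macrophage markers reached it in some library. In bulk RNA, fewer cells of a type and less RNA per cell cannot be told apart. Of the 10 members 8, not Cdkn1c and Meg3, reached an FPKM of 1 in at least 1 library.

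Promoter windows of 300 bases (250 before and 50 after the annotated start, RefSeq, GRCm38.p6) were found for 8 of the 10 members, in 15 windows; H19 and Cdkn1c had no entry. The 5 shown here are written 5′ to 3′ on the strand of the gene. Those of Igf2, Mest and Igf2r are of the members with the lowest levels in preconfluent cells relative to the 0h control. Those of Peg3 and Meg3 hold the cAMP response element TGACGTCA, shown because MDI contains IBMX, which raises cAMP. How much IBMX remained in CM is not given, and cAMP was not measured here. Capitals mark that element in Peg3 and Meg3, and the E-box CACGTG in Igf2r.
Igf2, chr7:142657447-142657746, minus strand: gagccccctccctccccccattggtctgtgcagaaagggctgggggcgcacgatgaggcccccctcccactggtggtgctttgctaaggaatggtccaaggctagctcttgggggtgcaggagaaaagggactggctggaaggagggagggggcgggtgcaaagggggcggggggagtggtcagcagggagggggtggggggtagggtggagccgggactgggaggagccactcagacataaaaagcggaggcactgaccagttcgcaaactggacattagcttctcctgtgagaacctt
Mest, chr6:30737800-30738099, plus strand: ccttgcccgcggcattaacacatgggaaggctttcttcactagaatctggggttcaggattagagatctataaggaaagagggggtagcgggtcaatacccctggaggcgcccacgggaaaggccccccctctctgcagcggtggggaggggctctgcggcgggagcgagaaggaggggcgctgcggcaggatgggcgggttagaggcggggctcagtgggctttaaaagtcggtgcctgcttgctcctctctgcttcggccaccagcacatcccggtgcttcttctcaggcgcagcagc
Igf2r, chr17:12769657-12769956, minus strand: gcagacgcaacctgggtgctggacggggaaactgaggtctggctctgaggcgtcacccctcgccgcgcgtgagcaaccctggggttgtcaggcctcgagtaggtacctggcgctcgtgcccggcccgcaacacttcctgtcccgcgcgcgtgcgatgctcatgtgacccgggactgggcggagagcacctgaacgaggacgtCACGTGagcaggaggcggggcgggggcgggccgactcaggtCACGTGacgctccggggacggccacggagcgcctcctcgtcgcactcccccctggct
Peg3, chr7:6730370-6730669, minus strand: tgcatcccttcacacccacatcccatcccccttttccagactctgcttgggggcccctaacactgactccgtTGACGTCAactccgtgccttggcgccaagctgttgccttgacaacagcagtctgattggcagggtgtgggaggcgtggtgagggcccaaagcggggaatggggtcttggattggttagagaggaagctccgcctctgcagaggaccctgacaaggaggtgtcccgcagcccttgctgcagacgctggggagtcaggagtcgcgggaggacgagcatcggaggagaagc
Meg3, chr12:109540746-109541045, plus strand: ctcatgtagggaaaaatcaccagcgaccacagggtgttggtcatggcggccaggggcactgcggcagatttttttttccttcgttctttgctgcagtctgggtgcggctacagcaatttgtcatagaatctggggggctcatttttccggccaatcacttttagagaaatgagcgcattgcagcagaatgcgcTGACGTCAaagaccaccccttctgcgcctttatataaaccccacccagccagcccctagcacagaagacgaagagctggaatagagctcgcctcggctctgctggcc

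Searched on both strands, TGACGTCA was in 1.79% of all 32851 promoter windows of the table, CACGTG in 7.15% and the GC box GGGCGG, left in lower case, in 35.7%. Neither TGACGTCA nor CACGTG was in any of the 4 Igf2, 3 Mest or 2 Grb10 windows or in that of Ndn, and Plagl1 held a CACGTG. The element began at position -178 from the annotated start in Peg3 and at -57 in Meg3. These matches describe the letters of the windows only.

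The first comparison set preconfluent cells against confluent 0h cells. The growth factor gene Igf2, its clearance receptor gene Igf2r, H19, Mest and Plagl1 were all at least 2-fold lower in both preconfluent libraries. In limma, fitted to the 7 libraries together, these 5 of the 8 members tested fell and none rose, at a Benjamini-Hochberg adjusted p under 0.05; over all 11263 genes tested 25.4% were called. The median log2 change was -1.91 over the 8 members and -0.02 over all genes tested. The members were chosen with earlier results of these data known, so the contrast with all genes is descriptive only. Peg3, Ndn and Grb10 did not pass. Igf2, Mest and Plagl1 were under an FPKM of 1 in both preconfluent libraries and met the limma filter only through other libraries, where they were higher. The model codes the 0h control as not CM, so each limma change from 0h is a value for MDI libraries. The medium shift it takes from the CM libraries is shared by all stages. A limma change can therefore lie outside both pair differences, as for Igf2r below.

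Igf2 (chr7:142650768-142670356) had an FPKM of 0.206 in Pro-CM and 0.530 in Pro-MDI, against 61.3 in the 0h control. Both preconfluent libraries were near the bottom of the measurable range. The log2 difference from 0h was -5.69 for Pro-CM and -5.35 for Pro-MDI, and limma gave -5.64 (SE 0.56, adjusted p = 0.00938). The size depends on the pseudocount, from -3.77 with 5 to -7.14 with 0.1, and the call held in all 9 alternatives. Of 11379 genes measured in Pro-MDI or the 0h control, 14 had a difference as low as that of Igf2 or lower, counting Igf2 itself.

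Mest (in a locus given jointly with Copg2, chr6:30733506-30896794), which encodes an enzyme-like protein of the alpha/beta hydrolase fold, followed closely. It was at 0.0429 in Pro-CM and 0.335 in Pro-MDI, against 29.0 in the 0h control. Its log2 difference was -4.85 for Pro-CM and -4.49 for Pro-MDI, and in limma it fell by 4.78 (SE 0.37, adjusted p = 0.00855). That change was -2.83 with a pseudocount of 5 and -6.79 with 0.1, and it passed in all 9 alternatives. In the ranking of the same 11379 genes 28 were at or below Mest.

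Igf2r (in a locus given jointly with Airn and Mas1, chr17:12682406-12868143) stood at 12.2 in Pro-CM and 15.5 in Pro-MDI, against 147 in the 0h control. It remained well above an FPKM of 1 in both preconfluent libraries, unlike Igf2 and Mest. The log2 difference was -3.49 for Pro-CM and -3.17 for Pro-MDI, and limma gave -3.67 (SE 0.59, adjusted p = 0.0190). With no filter on low values the adjusted p of Igf2r was 0.0527, which ends the call.

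H19 (chr7:142575532-142578146) was at 3.74 in Pro-CM and 2.33 in Pro-MDI, against 17.7 in the 0h control. Its log2 difference was -1.98 for Pro-CM and -2.49 for Pro-MDI, and it fell in limma by 2.43 (SE 0.20, adjusted p = 0.00855). Plagl1 (chr10:13090788-13131695) was low throughout, at 0.362 in Pro-CM and 0.246 in Pro-MDI, against 2.14 in the 0h control, and fell by 1.38 (SE 0.19, adjusted p = 0.0148). With a pseudocount of 5 the change was -0.47 and with 0.1 it was -2.77. Its call was lost without the 24h pair, where the adjusted p was 0.0595. Without the 4h pair Plagl1 did not meet the filter on low values.

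Counted by size alone, 6 of the 8 measured members were at least 2-fold lower in Pro-CM than in the 0h control, and 29.9% of all measured genes differed that much in either direction. For Pro-MDI the count was 5 of 8, with 25.8% of all measured genes. Igf2, Mest and Plagl1 were under an FPKM of 1 in both preconfluent libraries. They counted as measured only through the 0h control, so they could only come out lower. The member that separates the counts is Grb10 (chr11:11930499-12037420), an adaptor that dampens insulin and IGF1 receptor signalling. It was at 2.67 in Pro-CM and 3.63 in Pro-MDI, against 7.20 in the 0h control, and had an adjusted p of 0.0896 in limma.

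**Figure D1:**
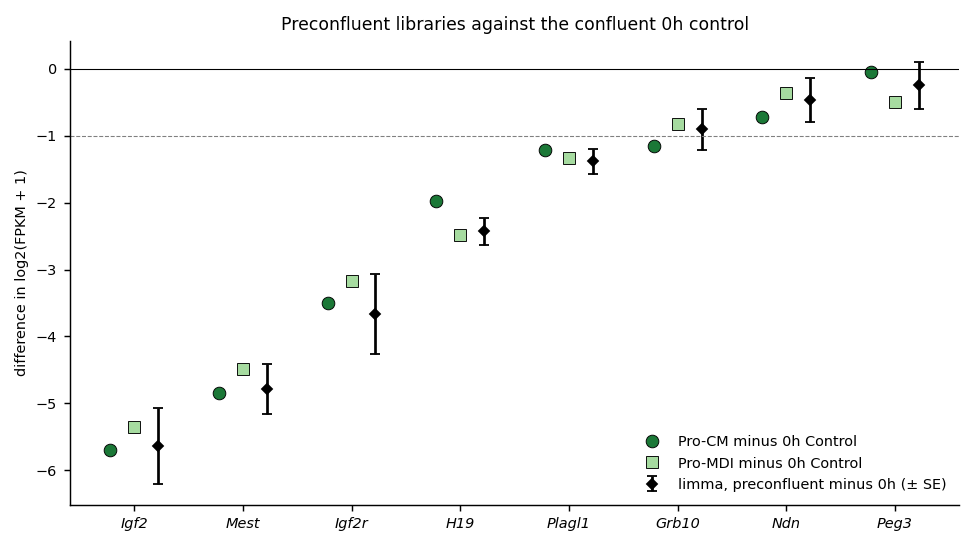
Differences in log2(FPKM + 1) of 8 members: Pro-CM minus 0h Control (circles), Pro-MDI minus 0h Control (squares), and the limma estimate of preconfluent minus 0h with its standard error (diamonds). The dashed line marks 2-fold lower; Igf2, Mest, Igf2r, H19 and Plagl1 lie below it for both libraries.

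Other features of the cells differed beside these genes. All 12 cell division genes listed rose in preconfluent cells in limma, where 25.4% of all genes were called, with a median change of 3.26, and their FPKM summed to 770 in Pro-CM and 789 in Pro-MDI, against 92.5 in the 0h control. Of the 10 preadipocyte and fibroblast markers 6 fell and none rose, and their sum was 4302 in Pro-CM and 4247 in Pro-MDI, against 10264 in the 0h control, with none of them at 0. One of them is the collagen gene Col3a1, at 110 in Pro-CM and 143 in Pro-MDI, against 1679 in the 0h control. Neither shift was particular to preconfluent cells. The cell division sum was 539 in 24h CM and 759 in 24h MDI, and the marker sum was 3713 in 24h CM and 5295 in 24h MDI. The part of these shifts in the levels of the imprinted genes was not tested.

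**Figure D2:**
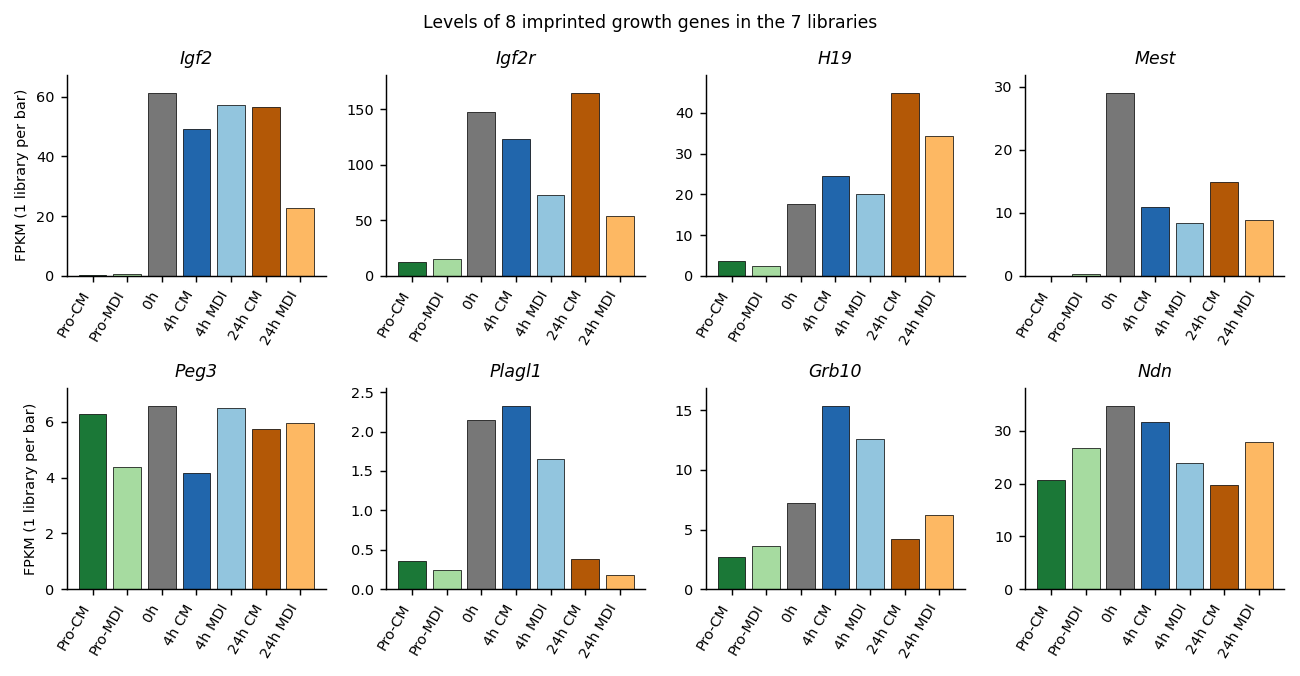
FPKM of 8 members in each of the 7 libraries, 1 bar per library, each panel with its own axis from 0. Igf2, Mest, H19 and Igf2r are lowest in the 2 preconfluent libraries, Plagl1 is low in the preconfluent and 24h libraries, and Grb10 is highest at 4h.

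At 4h, Mest was lower and Grb10 higher than at 0h in both media, but no member passed the limma test. Mest was at 10.9 in 4h CM and 8.37 in 4h MDI, against 29.0 in the 0h control. Its log2 difference was -1.34 for 4h CM and -1.68 for 4h MDI, and limma gave -1.62 (SE 0.37, adjusted p = 0.0549). It passed without the preconfluent pair (adjusted p = 0.0251) and on 2 other settings, and over 9 alternatives its adjusted p ran from 0.0251 to 0.228. Grb10 was at 15.3 in 4h CM and 12.6 in 4h MDI, against 7.20 in the 0h control, a log2 change of 0.95 in limma (SE 0.31, adjusted p = 0.0962).

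The clearance receptor gene Igf2r was closer to its 0h level in CM than in MDI. It was at 123 in 4h CM and 72.8 in 4h MDI, against 147 in the 0h control, and only 4h MDI was 2-fold lower (-1.01). That call ended with a pseudocount of 5 (-0.97) and with rescaling to a median ratio of 1 (-0.92). Igf2, at 49.3 in 4h CM and 57.4 in 4h MDI, and H19, at 24.5 and 20.0, were less than 2-fold from the 0h control. In count, 1 of 8 measured members (Mest) was 2-fold lower in 4h CM, with 18.9% of all measured genes differing that much. For 4h MDI it was 2 of 8 (Igf2r and Mest), with 27.6% of all genes. By limma 0 of 8 members were called between 4h and 0h, with 13.0% of all genes called.

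By 24h, Plagl1 had fallen relative to both 0h and 4h, and H19 had risen relative to 4h. Plagl1 was at 0.382 in 24h CM and 0.176 in 24h MDI, against 2.14 in the 0h control. Its limma change from 0h was -1.42 (SE 0.19, adjusted p = 0.0271), the only call among the 8 members, with 9.51% of all genes called. Against 4h, where it was at 2.32 in 4h CM and 1.65 in 4h MDI, the change was -1.22 (SE 0.15, adjusted p = 0.0153). Its low level makes the size depend on the pseudocount: the 24h against 0h change was -2.90 with a pseudocount of 0.1 and -0.47 with 5, and it passed in all 8 alternatives run. Plagl1 was under an FPKM of 1 in both 24h and both preconfluent libraries. It met the filters on low values only through the 0h and 4h libraries, so in 24h pairs with 0h or 4h it could only come out lower.

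H19 was at 44.9 in 24h CM and 34.3 in 24h MDI, against 24.5 in 4h CM and 20.0 in 4h MDI. These were its highest levels of all libraries, and in limma H19 rose by 0.80 at 24h relative to 4h (SE 0.16, adjusted p = 0.0337). Against the 0h control at 17.7, the change was 0.91 (SE 0.20, adjusted p = 0.0593). Grb10 moved the other way, at 4.24 in 24h CM and 6.24 in 24h MDI, against 15.3 in 4h CM and 12.6 in 4h MDI, and fell by 1.27 (SE 0.24, adjusted p = 0.0310). In all, 3 of 8 members, 1 upwards and 2 downwards, were called between 24h and 4h, with 21.3% of all genes called. Without a filter on low values H19 (adjusted p = 0.0628) and Grb10 (adjusted p = 0.0819) lost their calls.

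Mest stayed below the 0h control, at 14.9 in 24h CM and 8.78 in 24h MDI, a limma change of -1.38 (SE 0.37, adjusted p = 0.0864). Without the preconfluent pair it passed, at an adjusted p of 0.0339. By size, 2 of 8 members differed 2-fold between 24h CM and the 0h control, H19 higher (1.30) and Plagl1 lower (-1.19), with 18.2% of all measured genes. Between 24h MDI and the 0h control 4 of 8 were 2-fold lower, Igf2 (-1.38), Igf2r (-1.43), Plagl1 (-1.42) and Mest (-1.62), with 20.0% of all measured genes. From 4h to 24h, 2 of 8 were 2-fold lower in CM, Plagl1 (-1.27) and Grb10 (-1.64), with 13.7% of all genes. In MDI they were Plagl1 (-1.17) and Igf2 (-1.29), also 2 of 8, with 25.7% of all genes.

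The study then set CM against fresh MDI at each stage. The pair that stood apart was Igf2 and Igf2r at 24h. Igf2r was at 165 in 24h CM and 54.3 in 24h MDI, a log2 difference of 1.58, and 64 of 10972 measured genes were as far or further above MDI, counting Igf2r. Igf2 was at 56.6 in 24h CM and 22.9 in 24h MDI, a difference of 1.27, with 113 genes at or above it. The growth factor gene and its clearance receptor gene were both near their 0h levels in CM and below them in MDI. These 2 of 7 measured members were the ones at least 2-fold apart, with 3.42% of all measured genes. With 1 library on each side, neither difference has a replicate check.

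Markers of fat cells also differed between these 2 libraries, and their part in the difference was not tested. Of the 10 adipocyte markers 8 reached an FPKM of 1 in 24h CM and 7 in 24h MDI, and their sum was 623 in 24h CM and 150 in 24h MDI, with Lep listed at 0 in both. Preadipocyte and fibroblast markers summed to 3713 in 24h CM and 5295 in 24h MDI, but the single markers went both ways. Of 9 measured, 1 was at least 2-fold higher in CM, Pdgfra, at 179 in 24h CM and 69.6 in 24h MDI. Another 1 was at least 2-fold lower, Ly6a, at 116 in 24h CM and 371 in 24h MDI. Of all measured genes 3.42% were that far apart. Of the IGF list, 2 genes were also at least 2-fold higher in CM: Igfbp4, which encodes an IGF-binding protein that restrains IGF action, at 934 in 24h CM and 412 in 24h MDI, and Igfbp5, another IGF-binding protein, at 1.65 in 24h CM and 0.273 in 24h MDI.

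At 4h the members differed less. Igf2r was at 123 in 4h CM and 72.8 in 4h MDI (0.75) and Igf2 at 49.3 in 4h CM and 57.4 in 4h MDI (-0.22), and 0 of 8 members were 2-fold apart, with 4.06% of all genes. In preconfluent cells 0 of 5 measured members were 2-fold apart, with 3.45% of all genes, and Igf2r was at 12.2 in Pro-CM and 15.5 in Pro-MDI (-0.32). H19 was higher in CM at all 3 stages, at 24.5 in 4h CM and 20.0 in 4h MDI, 44.9 in 24h CM and 34.3 in 24h MDI, and 3.74 in Pro-CM and 2.33 in Pro-MDI. Mest was higher in CM at 4h and 24h, by 0.34 and 0.70. The limma fit of CM minus MDI over the 6 treated libraries called 0 of 8 members and 0 of 11158 genes (0.0%). In that fit H19 had a log2 change of 0.39 (SE 0.13) at an adjusted p of 0.9999, Igf2r one of 0.67 (SE 0.37) and Igf2 one of 0.24 (SE 0.36). By the unadjusted p of limma, 145 of the 11158 genes and H19 alone of the members were under 0.05.

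**Figure D3:**
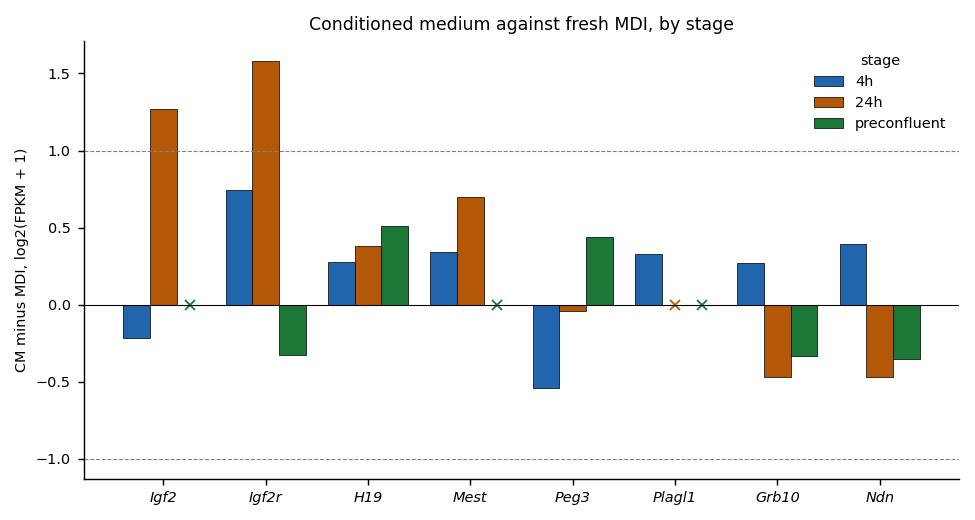
CM minus MDI in log2(FPKM + 1) for 8 members at 4h, 24h and in preconfluent cells, each bar from 1 library per medium. Dashed lines mark 2-fold, a cross marks a member under an FPKM of 1 in both libraries, and the 24h bars of Igf2 (1.27) and Igf2r (1.58) are the ones past the line.

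Peg3 and Ndn had similar levels in all 7 libraries. Peg3 (chr7:6705960-6730419), a zinc finger gene that acts in growth and in the control of other genes, ran from 4.16 in 4h CM to 6.57 in the 0h control. Ndn (chr7:62348277-62349927) ran from 19.8 in 24h CM to 34.7 in the 0h control. Neither differed 2-fold in any of the 11 pairs or passed limma in any of the 5 contrasts. In preconfluent cells Ndn was at 20.8 in Pro-CM and 26.8 in Pro-MDI, and Peg3 at 6.30 in Pro-CM and 4.39 in Pro-MDI. The antisense gene Peg3os, given the same locus as Peg3, ran from 5.91 in 4h CM to 10.1 in the 0h control.

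The order of the members differed by state. In both preconfluent libraries Ndn was highest, then Igf2r and Peg3. In the 0h control Igf2r (147) was highest, then Igf2 (61.3), Ndn (34.7), Mest (29.0) and H19 (17.7). With 1 library per condition there is no spread by which to separate neighbours in this order.

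Cdkn1c (chr7:143458339-143461050), the imprinted inhibitor of cyclin-dependent kinases, was hardly detected. It was listed at 0 in Pro-CM, Pro-MDI and 4h CM and reached 0.139 in the 0h control. Meg3 (chr12:109540996-109571729), a noncoding RNA of the Dlk1 locus, was at most 0.0170, in 4h MDI, and was listed at 0 in 4 libraries. Their depth is unknown and neither was tested.

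Several members lie beside or across another gene. The tables give Igf2r the same locus as Airn, the noncoding RNA read in the opposite direction through Igf2r that silences the paternal Igf2r copy in mouse, and give Mest the same locus as Copg2, a coat protein gene in the opposite direction. Whether reads were assigned by strand is not given in the sources used here, so reads of Igf2r and Airn, or of Mest and Copg2, cannot be told apart where they overlap. Airn was at 1.71 in Pro-CM and 3.71 in Pro-MDI, against 29.2 in the 0h control, and it fell, with a limma change of -3.31 (SE 0.69, adjusted p = 0.0318). Igf2r and Airn were low in the same preconfluent libraries, and the ratio of Igf2r to Airn FPKM was 7.12 in Pro-CM, 4.17 in Pro-MDI and 5.05 in the 0h control. It was 10.6 in 24h CM and 10.03 in 24h MDI, where both genes were higher in CM (Airn at 15.6 in 24h CM and 5.41 in 24h MDI).

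Mest and Copg2 differed by state. Their preconfluent ratios rest on Mest values under an FPKM of 1, with no pseudocount, so the size of these ratios is uncertain. Copg2 was at 10.9 in Pro-CM and 16.0 in Pro-MDI, against 37.6 in the 0h control (limma -1.46, SE 0.40, adjusted p = 0.0575), and the ratio of Mest to Copg2 was 0.00393 in Pro-CM and 0.0209 in Pro-MDI, against 0.772 in the 0h control. At 24h relative to 4h, Copg2 rose by 1.52 in limma (SE 0.31, adjusted p = 0.0358), at 38.3 in 24h CM and 40.0 in 24h MDI, against 16.7 in 4h CM and 10.1 in 4h MDI. Mest changed by 0.24 over that interval (SE 0.29, adjusted p = 0.553).

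Igf2 and H19 share a control region, and their ratio was lower in preconfluent cells too. Igf2 over H19 was 0.0550 in Pro-CM and 0.228 in Pro-MDI, against 3.46 in the 0h control. The preconfluent ratios rest on Igf2 values under an FPKM of 1, with no pseudocount, so their size is uncertain. At 4h it was 2.01 in CM and 2.87 in MDI, and at 24h it was 1.26 in CM and 0.667 in MDI. Both genes were low in preconfluent cells, Igf2 more so, while at 24h H19 was at its highest and Igf2 in MDI was lower than at 0h.

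**Figure D4:**
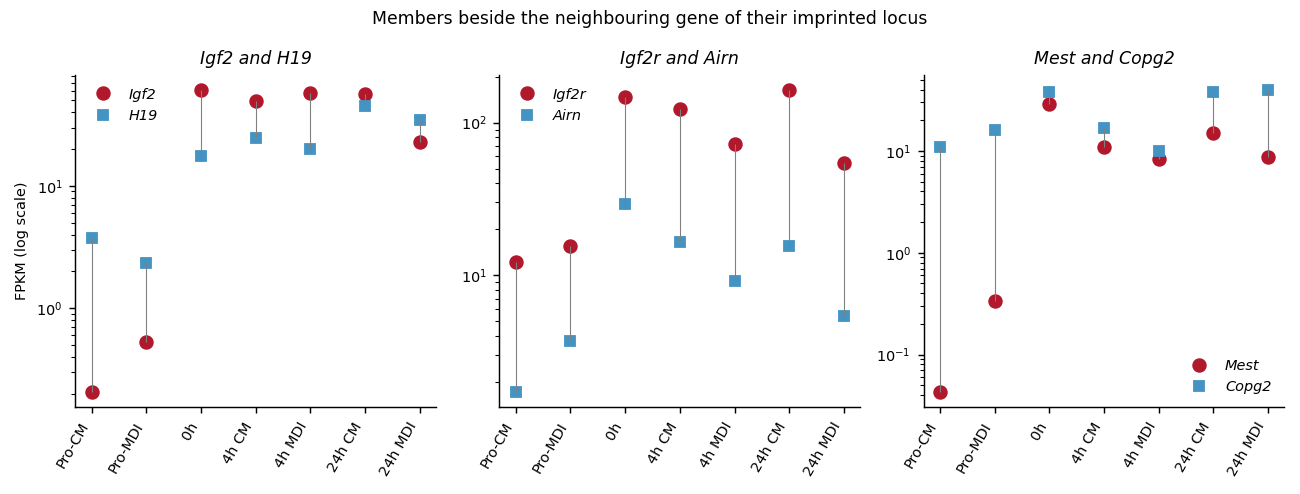
FPKM on a log axis of Igf2 with H19, Igf2r with Airn, and Mest with Copg2 in the 7 libraries (1 point per gene and library, a line joins the pair). Igf2 is below H19 in Pro-CM (ratio 0.0550) and above it at 0h (3.46), while Igf2r stays above Airn in all 7.

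Of 58 other genes in the members' clusters, 26 were tested in limma for preconfluent cells against 0h, of which 5 rose and 8 fell, with a median change of -0.39; 25.4% of all genes tested were called in this contrast. Beside H19 and Igf2, the lysosomal protease gene Ctsd was at 133 in Pro-CM and 165 in Pro-MDI, against 538 in the 0h control, and fell, as did Lsp1, at 8.38 and 9.71 against 32.7, and Tnnt3, a troponin gene, at 0.719 and 0.744 against 8.49. Dlk1, the preadipocyte gene of the Meg3 cluster that inhibits fat cell formation, was at 201 in Pro-CM and 178 in Pro-MDI, against 669 in the 0h control, and fell by 1.66 (SE 0.34, adjusted p = 0.0309). Begain of the same cluster, Airn, and Osbpl5 and Cd81 of the Cdkn1c cluster fell too. The genes that rose were Fignl1 beside Grb10 (16.9 in Pro-CM and 20.98 in Pro-MDI, against 2.72 in the 0h control), Peg12 of the Ndn cluster (10.03 and 7.64, against 3.02), the decoy receptor genes Tnfrsf22 and Tnfrsf23 of the Cdkn1c cluster, and Sf3b5 near Plagl1. In 24h CM against 24h MDI, 2 of 26 measured cluster genes were at least 2-fold apart, Airn and Phlda2, a placental growth inhibitor gene (2.98 in 24h CM and 0.327 in 24h MDI), both higher in CM, with 3.42% of all measured genes that far apart. Phlda2 counted as measured only through 24h CM, so it could only come out higher there.

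Other imprinted genes, outside the members' clusters but for Dhcr7, number 38 in the tables, and 24 of them were tested. In preconfluent cells 3 fell (Dcn, Sgce and Impact) and 1 rose (Bcl2l1), with a median change of -0.22 and 25.4% of all genes called. Dcn, which encodes the matrix proteoglycan decorin and is imprinted in mouse placenta, was at 0.661 in Pro-CM and 1.87 in Pro-MDI, against 386 in the 0h control, and fell by 7.19 (SE 0.32, adjusted p = 0.00855). It was at 33.4 in 24h CM and 61.1 in 24h MDI, and fell at 24h as well (-2.78, SE 0.32, adjusted p = 0.0218). Peg10 was highest in 24h CM (111) and lowest in the 0h control (18.8), and Tfpi2 was highest in 4h MDI (37.5) and lowest in 24h CM (0.643). Between 24h and 4h, 6 of the 24 fell and 1 rose, with 21.3% of all genes called.

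Among 13 IGF pathway genes tested, preconfluent cells had 4 that fell and 3 that rose, with 25.4% of all genes called. Igf1, the other IGF ligand gene, was at 2.65 in Pro-CM and 1.17 in Pro-MDI, against 16.1 in the 0h control, and fell by 2.81 (SE 0.27, adjusted p = 0.00934). Irs1, a docking protein of the insulin and IGF1 receptors, fell by 2.93 (SE 0.25, adjusted p = 0.00855), and Irs2, the related docking protein, rose by 1.75 (SE 0.35, adjusted p = 0.0293). Igfbp4 was at 20.9 in Pro-CM and 37.0 in Pro-MDI, against 258 in the 0h control, and fell by 3.29 (SE 0.61, adjusted p = 0.0245). The receptor genes Igf1r, at 5.34 in Pro-CM and 5.26 in Pro-MDI, against 8.67 in the 0h control, and Insr, at 5.08 and 4.76 against 8.50, were less than 2-fold apart. At 4h Irs1 fell to 1.01 in CM and 1.16 in MDI, against 12.1 in the 0h control, and Irs2 rose to 70.0 in CM and 77.3 in MDI, against 12.0 in the 0h control.

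Of the 7 other CDK inhibitors tested, 4 fell in preconfluent cells (Cdkn1a, Cdkn2a, Cdkn2b and Cdkn2c) and 1 rose (Cdkn2d), with 25.4% of all genes called. Cdkn2b was at 10.6 in Pro-CM and 21.9 in Pro-MDI, against 81.2 in the 0h control, and Cdkn2c at 15.4 and 20.97, against 63.2. Of 13 tested factors that maintain or erase imprints, 3 rose and 3 fell in preconfluent cells, with the same 25.4% of all genes called. Uhrf1, which guides the maintenance methyltransferase to replicating DNA, was at 66.7 in Pro-CM and 66.4 in Pro-MDI, against 7.78 in the 0h control, and rose by 3.04 (SE 0.38, adjusted p = 0.0125), and that methyltransferase, Dnmt1, rose by 1.94 (SE 0.24, adjusted p = 0.0120). The de novo methyltransferase Dnmt3a was at 1.33 in Pro-CM and 1.25 in Pro-MDI, against 8.89 in the 0h control, and fell by 2.25 (SE 0.23, adjusted p = 0.00979). Zfp57, a zinc finger protein that protects imprints, fell at 24h, to 3.33 in CM and 3.94 in MDI, against 20.1 in the 0h control (-2.16, SE 0.36, adjusted p = 0.0366).

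For members that ranged over at least 2 on the log2 scale, the genes of most like profile over the 7 libraries were found among 11262 genes, by the root mean square difference of centred log2(FPKM + 1). For Igf2 they were Mmp2 (0.39), Nid2 (0.40) and Dpt (0.54), and for Igf2r Col15a1 (0.21), Iglon5 (0.32) and Adamts1 (0.33). Those of Mest were Fcgrt (0.42), Lama4 (0.43) and Aspn (0.44), those of H19 Mterfd2 (0.26), Col18a1 (0.32) and Lgals7 (0.34), and those of Grb10 4930562F07Rik (0.15), Dram1 (0.19) and 4930523C07Rik (0.19). Mmp2, for example, was at 31.4 in Pro-CM and 47.7 in Pro-MDI, against 1746 in the 0h control. Between these 5 members the closest profiles were those of Igf2r and Mest, at 0.50, and of H19 and Igf2r, at 0.68, and Igf2 and Grb10 were furthest apart, at 1.89.

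In the authors' deposited tables, which cover 7 of these pairs and compare 2 libraries without replicates, 56 of the 70 member entries were marked testable. One had a p under 0.05 in the authors' deposited tables, Plagl1 in 24h CM against the 0h control (p = 0.04445, q = 0.908661, both from Cuffdiff), and 0 had a q under 0.1.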

How the data were processed

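Total RNA was extracted with Trizol, per the labels' protocols. TopHat2 2.0.13 and Cuffdiff 2.2.0 were used, per the submitters' processing notes. The genome build, like strand and read length, is not given in the sources used here. As deposited by the authors, the tables hold FPKM of 23996 genes in 2 libraries each, with a Cuffdiff p-value and q-value, per the file headers. FPKM of a library agreed between tables (largest difference 1.1e-16), so the 7 tables were joined into 7 libraries. A line of each table was empty (1 per table) and is not reported here. Loci are those of the authors' tables with 1 added to the start, and orientation and overlaps came from GENCODE release M21. Where other genes are given the same locus, as for Igf2r and Mest, the span covers those genes too.

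Pairs of libraries used a rule of size (2-fold on log2(FPKM + 1)) and no test. Time contrasts were fitted with limma 3.58.1 and an intensity trend. Their model had terms for stage and for medium, coded 0h as not CM and kept genes that reached an FPKM of 1 in 2 or more of the 7 libraries. Changes from 0h are thus values for MDI libraries, with a medium shift shared by all stages taken from the CM libraries. They are not means over both media. For the medium contrast, stage was a block in a fit of the 6 treated libraries. Each fit leaves 2 residual degrees of freedom, made up of library noise and of any interaction between stage and medium, so its p-values say nothing of how cultures vary. The script was tested on simulated data. Alternatives were a pseudocount of 0.1 or 5, other filters, rescaling to TPM or to a median ratio of 1, no trend, leaving out a pair, and a threshold of 0.1. The members and lists were chosen with earlier results of these data known.

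The rule for named genes took all members, genes of their clusters that reached an FPKM of 1 in some library, up to 4 genes of each other list with the largest range, and the 3 nearest profiles of each member that ranged over at least 2. Receptor genes, Col3a1 and genes that make up a count of 5 or fewer were named after their values were seen. Computation used R 4.3.3 and Python 3.11.15 (matplotlib 3.10.9, pandas 2.3.3, numpy 2.4.6, scipy 1.17.1).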

Additional observations from a re-analysis of the deposited data

Results flagged for a closer look

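The medium difference of Igf2 was past 2-fold at 24h and small at 4h. It was 1.27 (CM minus MDI, log2 scale) at 24h, where Igf2 was at 56.6 in 24h CM and 22.9 in 24h MDI, and -0.22 at 4h, where it was at 49.3 in 4h CM and 57.4 in 4h MDI. At 4h, 23.2% of all measured genes had a difference as low as that of Igf2 or lower. The difference between the times was not tested, because each condition has 1 library.

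For Igf2r the medium difference was 1.58 at 24h, at 165 in 24h CM and 54.3 in 24h MDI, and -0.32 in preconfluent cells, at 12.2 in Pro-CM and 15.5 in Pro-MDI. This difference between stages was not tested either. Signs also differed between stages for Grb10, Ndn and Peg3, each by less than 2-fold at every stage.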

How the results depend on the processing

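The medium fit paired CM with MDI by stage. By replicate, no paired analysis was possible because each condition has 1 library and the labels give no replicate numbers. Of 110 recomputed counts of called members, 92 stayed within 1.5 times the main count. The counts below are given without the share of all genes called at the same setting. They therefore do not show whether a change in count was particular to the members or shared by other genes. With a pseudocount of 5, the count was 1 for 4h MDI against 0h, 24h CM against 0h, 24h MDI against 4h MDI and 24h CM against 4h CM, and by limma 1 for 4h against 0h and 3 for 24h against 0h. With a pseudocount of 0.1 it was 2 for 4h CM against 0h. An FPKM of at least 5, which leaves Plagl1 out, gave 1 for 24h CM against 0h and for 24h against 4h in either medium. Rescaling to a median ratio of 1 gave 1 for 4h MDI and 2 for 4h CM against 0h. In limma, 4h against 0h gave 1 (Mest) after rescaling to TPM or without the preconfluent pair and 2 at a threshold of 0.1, 24h against 0h gave 3 at 0.1 and 2 without the preconfluent pair, and 24h against 4h gave 1 without a filter on low values. For single members, 814 values kept their side of the threshold, 16 crossed it upwards, 13 fell below it and 0 changed direction where called. Rescaling to TPM shifted log2 levels, before the pseudocount, by between -0.36 (4h MDI) and -0.16 (Pro-MDI and Pro-CM) relative to 0h. H19 at 4h, 0.11 in limma, was -0.23 on that scale. Depth is unknown, which limits Cdkn1c, Meg3 and Plagl1 most.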

Other observations

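Of 7 microRNA genes hosted by or near the members, 6 (Mir675, Mir483, Mir335, Mir770, Mir127 and Mir136) were listed at 0 in all 7 libraries. Mir431, of the Meg3 cluster, was at 87.3 in 4h CM and 76.5 in 4h MDI and was listed at 0 in the other 5 libraries. It is a short gene with a value at 1 time only, and Meg3 in those libraries was at 0.00207 in 4h CM and 0.0170 in 4h MDI.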
